A study of Mus musculus with 6 samples.

Results

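The guanylate binding proteins (GBPs) were followed in WT MEFs, fibroblasts grown from mouse embryos, after acute knockdown of *Yme1l*. The family was defined by gene name as the 10 genes *Gbp2*, *Gbp2b* and *Gbp3* to *Gbp10*, and their names were found in 7 of the 51499 loci of the count table. GBPs are large GTPases of the dynamin superfamily that interferons induce. They assemble on the vacuoles of intracellular pathogens and on cytosolic bacteria, break these membranes and help caspase-11 to meet bacterial lipopolysaccharide. In fibroblasts they belong to the interferon-stimulated genes (ISGs), whose promoters carry elements that interferon-activated factors read.

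The cultures were WT MEFs transfected with a non-targeting control siRNA (Scr) or with Yme1l siRNA and harvested at 72 h, with 3 independent cultures per group. The labels name no treatment with an interferon or a pathogen. WT MEFs in the methods include a clone of a line derived from *Yme1l* loxP/loxP mice. Which WT line received these siRNAs is not stated. All 6 libraries share the label WT MEF, and animals were not compared. The methods describe immortalization with SV40 large T antigen and the sample labels a 3T3 line. The RNA was poly(A)-selected, the libraries were stranded, and the sources used here do not say how many siRNA sequences a treatment contained.

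The 6 libraries held between 37260605 and 45205207 counts. Of 14499 loci that passed the filter on low counts, 4123 (28.4%) were higher and 4288 (29.6%) lower after Yme1l siRNA in edgeR's quasi-likelihood test at an adjusted p under 0.05. *Yme1l1*, the targeted gene, stood at 170, 171 and 171 CPM (counts relative to the scaled library size) in the Scr cultures and at 31.6, 23.4 and 45.0 CPM after Yme1l siRNA, with the most left in Yme1l siRNA replicate 3. The fibroblast label was met by the summed level of *Col1a1*, *Col1a2*, *Col3a1*, *Vim*, *Thy1*, *Pdgfrb* and *Fn1*, which was 32948 to 40017 CPM in Scr and 17641 to 22052 CPM in Yme1l siRNA cultures. *Thy1* was at 1 count or fewer in every library. Of these markers, 5 of the 6 tested fell. The 8 markers of macrophages and other leukocytes summed to 163 to 180 CPM in Scr and 242 to 255 CPM in Yme1l siRNA cultures, nearly all of it from *Csf1r* and *Cd68*. *Adgre1* and *Tyrobp* had no count in any library, and *Ptprc* had counts (3) in a single one. Of the 3 leukocyte markers tested, *Csf1r* was higher. Among 4 endothelial markers 2 of the 3 tested were higher, with sums of 3.79 to 4.08 CPM and 5.68 to 7.81 CPM. The 4 epithelial markers summed to at most 1.33 CPM in any library, and *Krt8*, the one tested, was higher. In bulk RNA, more cells of a type and more RNA per cell cannot be told apart, and the part of these markers in the *Gbp* values was not tested.

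In the mouse genome (GRCm38) the family lies in a pair of clusters. *Gbp5*, *Gbp7*, *Gbp3*, *Gbp2b* and *Gbp2* follow each other on the plus strand of chromosome 3, from 142493978 to 142638008, and each has a locus of its own. *Gbp4*, *Gbp8* and *Gbp9* share the locus XLOC_034040 on the minus strand of chromosome 5, from 105014150 to 105139586, where their annotated genes overlap. *Gbp10* and *Gbp6* share XLOC_034041, from 105214907 to 105293698, with *Gm43302*, a protein-coding gene that overlaps both. Counts of these joint loci cannot be assigned to single genes. The longest transcripts of *Gbp10* and *Gbp6* are 97.8% identical over 2603 aligned bases, and 44.2% of the 100-base windows of *Gbp6* occur unchanged in *Gbp10*. On chromosome 3 the closest pair by transcript identity, *Gbp2* and *Gbp2b*, reaches 83.4% and shares no such window, while 0.929% of those of *Gbp3* occur in *Gbp7*. How the authors treated reads with several matches is not given in the sources used here. *Gbp7* holds the processed pseudogene *Gm43802* on its own strand, and *Gbp2* the microRNA gene *Mir6381* on the other strand.

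RefSeq promoter windows (GRCm38.p6, 250 bases before to 50 after a start site) were at hand for 5 of the 10 genes, those of chromosome 3. Both strands were searched for the core of the interferon-stimulated response element (ISRE), written GAAANNGAAA or TTTCNNTTTC on the other strand, which IRF proteins recognise, and the gamma-activated site (GAS), written TTCNNNGAA on either strand, which serves the answer to interferon-γ. The ISRE core was found in 5 of the 6 windows of these genes, in at least 1 window of each gene. Over all promoters, 1131 of 32851 windows (3.44%) held it. The stretches below show the matches in capitals, with 75 bases before and 15 after them on the plus strand. They are printed because the ISRE is an element through which the family is known to answer interferon.

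Gbp5, chr3:142496694-142496793: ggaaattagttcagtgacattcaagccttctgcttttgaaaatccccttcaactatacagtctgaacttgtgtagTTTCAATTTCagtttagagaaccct
Gbp7, chr3:142530208-142530307: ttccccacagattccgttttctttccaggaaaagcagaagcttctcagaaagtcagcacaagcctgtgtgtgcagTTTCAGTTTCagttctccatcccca
Gbp3, chr3:142559924-142560029: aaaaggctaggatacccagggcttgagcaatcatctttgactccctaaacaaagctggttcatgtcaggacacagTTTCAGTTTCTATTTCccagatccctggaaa
Gbp2b, chr3:142594635-142594734: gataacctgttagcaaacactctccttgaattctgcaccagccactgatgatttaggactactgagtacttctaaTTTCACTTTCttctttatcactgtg
Gbp2, chr3:142620529-142620628: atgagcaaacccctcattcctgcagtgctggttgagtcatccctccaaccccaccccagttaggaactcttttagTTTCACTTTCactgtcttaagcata

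Every match reads TTTCNNTTTC on the strand of the gene. The first base of the core lay 165 bases before the start site in *Gbp5*, 53 in *Gbp7*, 137 in *Gbp2b* and 59 in *Gbp2*. *Gbp3* held a pair of overlapping cores that begin 45 and 39 bases before its start, and its second window, for a later start, held none. Its first core and that of *Gbp7* have the same letters, as do those of *Gbp2b* and *Gbp2*. GAS matches were found in *Gbp5*, 245 and 52 bases before the start, and in *Gbp7*, 106 and 87 bases before it, and none overlapped an ISRE core. Of all windows, 2726 (8.30%) held a GAS match. Start sites differ between annotations. In GENCODE M21 the *Gbp2* core falls just inside a first exon that begins at 142620602, and a *Gbp5* transcript starts upstream of its core, which then lies in an intron. These matches describe letters and not binding.

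**Figure D1:**
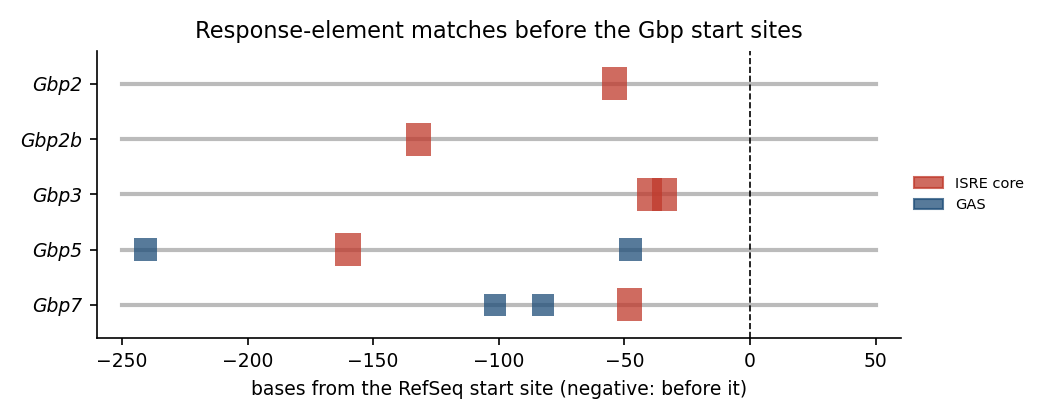
Matches to the ISRE core (red) and to GAS (blue) in RefSeq promoter windows of the 5 *Gbp* genes of chromosome 3, by distance in bases from the start site (dashed line; for *Gbp3*, the earlier of its 2 start sites). Each gene has an ISRE core, between 165 and 39 bases before the start, while GAS matches appear in *Gbp5* and *Gbp7*.

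After Yme1l siRNA the fitted change was positive at each of the 6 *Gbp* loci that could be tested. *Gbp3* and both joint loci of chromosome 5 rose most, *Gbp7* rose about 2-fold with overlapping groups, and *Gbp2* and *Gbp5* did not pass the test. By edgeR, 4 of the 6 loci were higher and 0 were lower, against 28.4% of all loci tested that were higher and 29.6% that were lower. At least 2-fold higher were 3 loci, against 8.18% of all loci, and at the same 3 every Yme1l siRNA library exceeded every Scr library, against 31.9% of all loci. The median log2 fold change of the 6 loci was 1.69, and that of all loci 0.01. Each of the 6 had at least 29 counts in every library, so their passing the filter did not depend on either group. The seventh locus, *Gbp2b*, which was formerly named *Gbp1*, had 0 counts in all 6 libraries. A count of 0 allows up to 3 counts, which is 0.0676 to 0.0831 CPM in these libraries, so its expression was not detectable at this depth in either group.

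*Gbp3*, which has no prenylation motif at its end, was at 34.3, 24.7 and 10.8 CPM in the Scr cultures. After Yme1l siRNA it reached 220, 230 and 89.6 CPM. The groups did not overlap, and the lowest library of each group was its replicate 3. Means were 23.3 ± 11.8 and 180 ± 78.1 CPM (SD, n = 3 each). The log2 fold change was 2.95 ± 0.46 (SE) with an edgeR adjusted p of 0.000764, and leaving out each library in turn kept it between 2.60 and 3.34.

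*Gbp2* encodes a GBP that is attached to membranes by a lipid anchor and reaches the vacuole of *Toxoplasma gondii*. Its Scr cultures held 45.5, 41.3 and 31.0 CPM, and its Yme1l siRNA cultures 66.7, 81.8 and 35.1 CPM. Yme1l siRNA replicates 1 and 2 lay above all Scr cultures, and replicate 3 lay within their range. The log2 fold change was 0.64 ± 0.27 (SE) and missed the threshold with an adjusted p of 0.0735 from edgeR. Without Yme1l siRNA replicate 3 it was 0.92 with an adjusted p of 0.00101, and without Yme1l siRNA replicate 2 it was 0.38 with an adjusted p of 0.245.

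*Gbp7*, which has been linked to the assembly of the phagocyte NADPH oxidase, was at 24.0, 20.1 and 17.7 CPM in Scr and at 45.6, 52.5 and 22.7 CPM in Yme1l siRNA cultures. Replicate 3 of the Yme1l siRNA group lay just under Scr replicate 1, and the other two were far above it. Its log2 fold change of 0.97 ± 0.27 (SE) passed with an adjusted p of 0.0146 from edgeR. The call was lost without Scr replicate 3, with 0.86 and an adjusted p of 0.0552.

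*Gbp5* carries a lipid anchor like *Gbp2* and has been linked to inflammasome assembly. It had the fewest counts of the chromosome 3 loci with any. Scr libraries had 65, 29 and 40 counts, and Yme1l siRNA libraries 111, 173 and 36 counts. Yme1l siRNA replicate 3 thus lay within the Scr range. In CPM the means were 1.08 ± 0.37 and 2.45 ± 1.56 (SD, n = 3 each), and the log2 fold change of 1.17 ± 0.50 (SE) had an edgeR adjusted p of 0.0741. It changed most with single libraries, from 0.63 without Yme1l siRNA replicate 2 (adjusted p = 0.283 from edgeR) to 1.57 without Yme1l siRNA replicate 3 (adjusted p = 0.00262).

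The chromosome 5 loci were low in Scr cultures and higher in every Yme1l siRNA culture. *Gbp4*, *Gbp8* and *Gbp9* together had 148, 113 and 88 counts in Scr and 626, 836 and 279 counts in Yme1l siRNA libraries, or 3.42, 3.13 and 2.09 CPM against 14.1, 19.2 and 6.62 CPM. The log2 fold change was 2.21 ± 0.37 (SE, edgeR adjusted p = 0.00107). *Gbp10*, *Gbp6* and *Gm43302* together had 95, 99 and 77 counts in Scr and 921, 1052 and 384 counts in Yme1l siRNA libraries, or 2.19, 2.74 and 1.83 CPM against 20.8, 24.2 and 9.11 CPM. Their log2 fold change was 3.00 ± 0.35 (SE, edgeR adjusted p = 0.000173), and it stayed between 2.74 and 3.32 with each library left out in turn. The neighbouring *Gbp11*, annotated as a polymorphic pseudogene and not among the 10 genes, had at most 8 counts in a library and was not tested. *Gbp2-ps*, an unprocessed pseudogene beside *Gbp2*, had 0 counts.

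**Figure D2:**
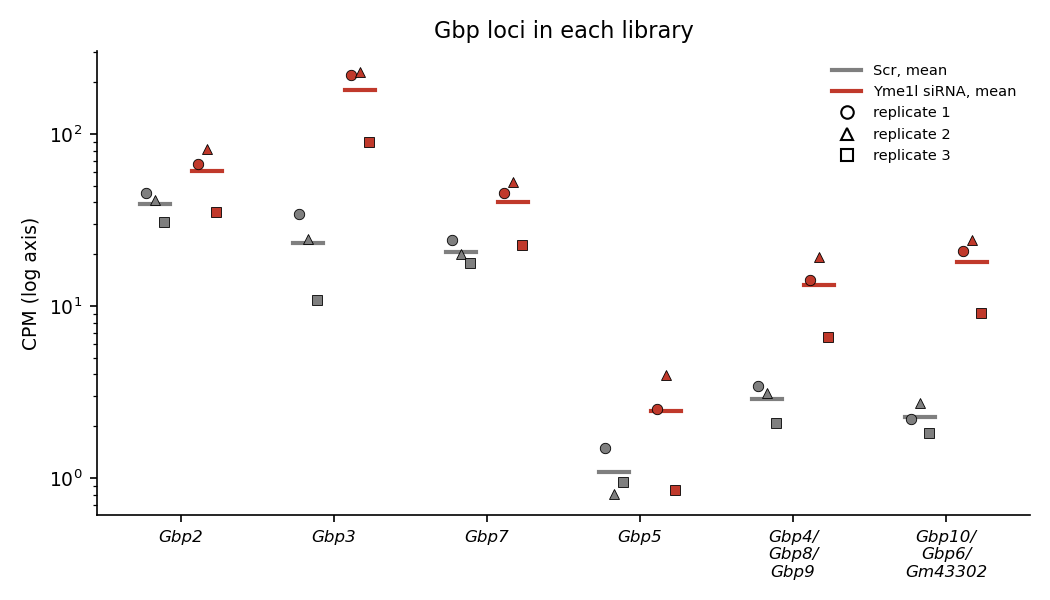
Level of the 6 tested *Gbp* loci in every library, in CPM on a log axis, with Scr in grey, Yme1l siRNA in red, a symbol for each replicate and a bar for the group mean. *Gbp3* and both joint loci show separate groups, and replicate 3 (square) is the lowest Yme1l siRNA library at each locus.

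**Figure D3:**
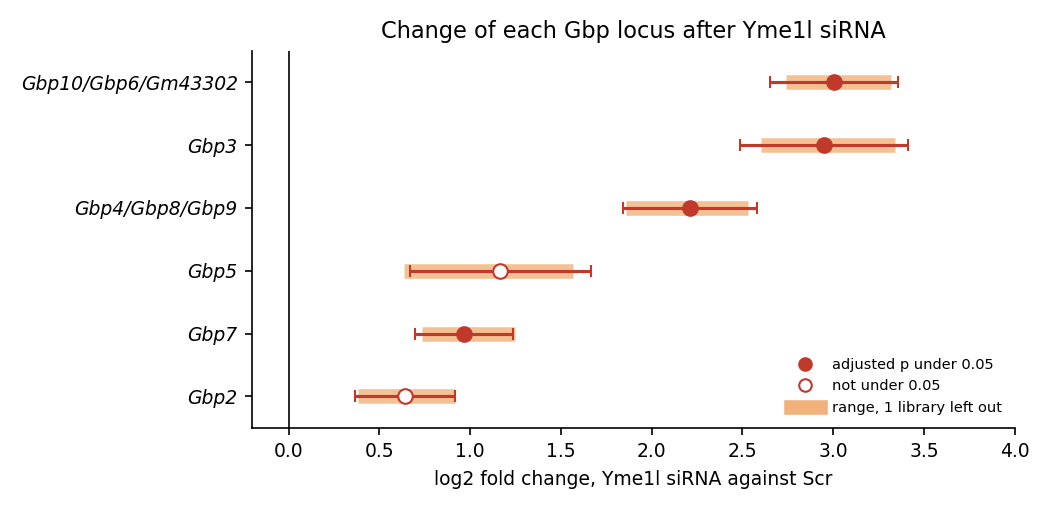
Log2 fold change of each tested *Gbp* locus, Yme1l siRNA against Scr, with its standard error (whiskers) and the range over fits with 1 library left out (orange). Filled circles mark an adjusted p under 0.05. Changes run from 0.64 for *Gbp2* to 3.00 for the *Gbp10* locus, and no range reaches 0.

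Since paralogues of a cluster can share reads, the counts of each cluster were also summed and fitted in place of their loci. The chromosome 3 cluster had 105, 86.8 and 60.4 CPM in Scr and 334, 368 and 148 CPM in Yme1l siRNA cultures, a log2 fold change of 1.75 ± 0.33 (SE, edgeR adjusted p = 0.00197). The chromosome 5 cluster had 5.61, 5.87 and 3.91 CPM against 34.9, 43.4 and 15.7 CPM, a log2 fold change of 2.61 ± 0.35 (SE, edgeR adjusted p = 0.000327). Groups did not overlap at either sum, and each cluster was called in every fit that left out a library. The difference between the clusters was not tested on these sums.

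Levels were compared between genes per kilobase of annotated exon. In the Scr cultures *Gbp2* led with 15.6 CPM per kilobase (12.3 to 18.1), followed by *Gbp3* with 7.12 (3.30 to 10.5) and *Gbp7* with 3.67 (3.15 to 4.28). *Gbp3* and *Gbp7* overlapped in Scr, so their order is not fixed by these libraries. The remaining loci lay between 0.121 and 0.258 CPM per kilobase and overlapped each other. For the joint loci this divides by the exons of all their genes and is not the level of any single gene. After Yme1l siRNA *Gbp3* was first with 55.0 CPM per kilobase (27.4 to 70.4), above *Gbp2* with 24.3 (14.0 to 32.5) and *Gbp7* with 7.17 (4.04 to 9.36). The ranges of *Gbp3* and *Gbp2* overlapped across libraries, while *Gbp3* exceeded *Gbp2* within each of the 3 libraries. The *Gbp10* locus followed with 1.70 CPM per kilobase (0.858 to 2.28), the *Gbp4* locus with 0.833 (0.414 to 1.20) and *Gbp5* with 0.368 (0.129 to 0.600), and each of these overlapped the next.

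All *Gbp* counts together rose from 111, 92.7 and 64.3 CPM in Scr to 369, 411 and 164 CPM in Yme1l siRNA cultures. The share of each locus in these counts is given as a description, with no test. *Gbp2* gave 41.0%, 44.5% and 48.2% of the *Gbp* counts in the Scr libraries and 18.1%, 19.9% and 21.4% after Yme1l siRNA. *Gbp3* gave 30.9%, 26.6% and 16.8% in Scr and 59.5%, 55.8% and 54.6% after Yme1l siRNA. *Gbp7* gave 21.7% to 27.5% in Scr and 12.4% to 13.8% after Yme1l siRNA. Neither the *Gbp2* nor the *Gbp3* shares overlapped between the groups, and the Yme1l siRNA libraries had like shares although their summed levels differed. The locus of *Gbp10* and *Gbp6* gave 1.98% to 2.96% in Scr and 5.56% to 5.88% after Yme1l siRNA.

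**Figure D4:**
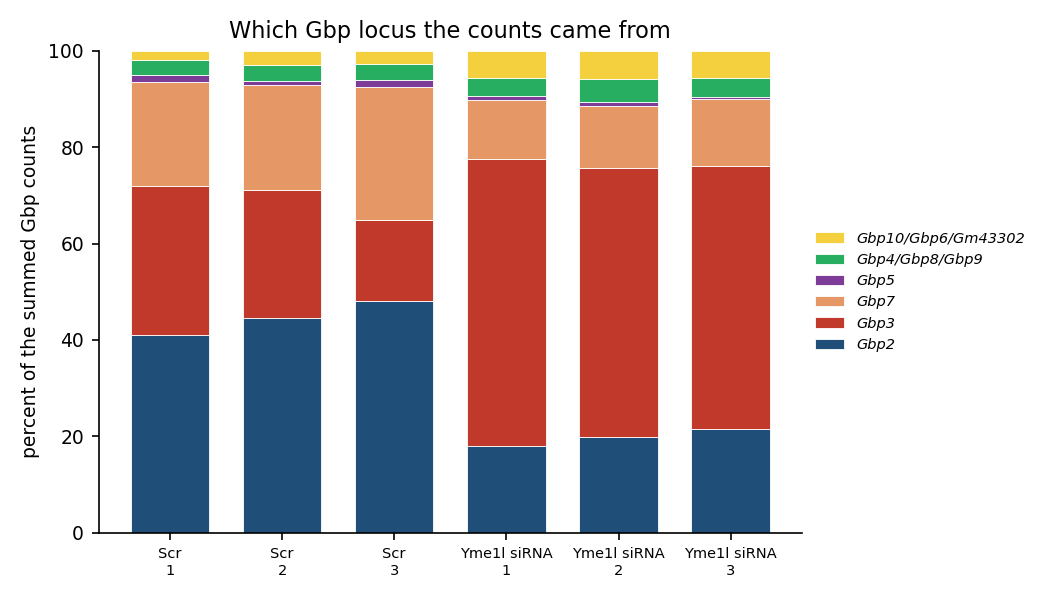
Percent of the summed *Gbp* counts that came from each locus, by library. *Gbp2* (blue) is the larger share in the 3 Scr libraries and *Gbp3* (red) in the 3 Yme1l siRNA libraries, where it makes up 54.6% to 59.5%.

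A ratio of a pair of *Gbp* loci within a library does not depend on how the libraries were scaled. The count ratio of *Gbp3* to *Gbp2* was 0.754, 0.598 and 0.348 in Scr and 3.29, 2.81 and 2.55 in Yme1l siRNA libraries, a difference of 2.41 on the log2 scale. That of *Gbp10* and *Gbp6* to the *Gbp4* locus was 0.642, 0.876 and 0.875 in Scr and 1.47, 1.26 and 1.38 after Yme1l siRNA, a difference of 0.79. Of the 100-base windows of *Gbp8*, in the *Gbp4* locus, 2.29% occur unchanged in *Gbp10*. The part of shared reads in this ratio was not tested. *Gbp7* to *Gbp2* differed by 0.32, from 0.528, 0.488 and 0.572 to 0.684, 0.642 and 0.646. All 15 pairs were compared, which are built from 6 loci and are not independent. The groups did not overlap in 12 of the 15 pairs, these 3 among them. The two-sided exact permutation test gave p = 0.1 for each of the 12, or 0.125 adjusted over the 15 pairs. That is the smallest p that 3 against 3 allows, so no pair could pass 0.05. The ratio of *Gbp10* and *Gbp6* to *Gbp3* overlapped, with a difference of -0.08 (exact permutation p = 0.7). So did those of *Gbp5* to *Gbp7* and of *Gbp5* to *Gbp2*, at 0.08 and 0.39 (exact permutation p = 0.9 and p = 0.4).

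The *Gbp* loci varied more between cultures of 1 group than the median locus did. The highest Yme1l siRNA library exceeded the lowest by 2.32-fold to 4.66-fold over the 6 loci (median 2.61-fold), and the median over all loci was 1.20-fold. Without replicate 3, a comparison added after the data were seen, the Yme1l siRNA range was 1.05-fold to 1.59-fold (median 1.20-fold, all loci 1.10-fold). Leaving out that library had to narrow the range, since it was the lowest at all 6 loci, so the comparison with all loci is not an even one. In Scr the range was 1.36-fold to 3.18-fold (median 1.57-fold, all loci 1.16-fold), and without Scr replicate 3 the median was 1.22-fold (all loci 1.07-fold). Yme1l siRNA replicate 3 was the lowest of its group at all 6 loci, as it was at 38.5% of all loci, and Scr replicate 3 at 5 of 6 against 39.3%. These are descriptions of loci that were chosen together and that share their libraries. In Yme1l siRNA replicate 3, *Yme1l1* was higher than in the other two (45.0 CPM), and *Ifnb1*, which encodes interferon-β, had 11 counts against 37 and 60. The part of either in the spread of the *Gbp* loci was not tested.

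Across the 6 libraries, the log2 levels of the *Gbp* loci had pairwise Pearson correlations of 0.74 (*Gbp5* with the *Gbp10* locus) to 0.98 (the *Gbp10* locus with the *Gbp4* locus). The points share the difference between the groups and the library scaling, and no p is given. The loci most like the mean standardised *Gbp* level were *Tmem248* (r = 0.999), *H2-D1* (0.998), which encodes a heavy chain of MHC class I, *Shisa5* (0.997), *Ly6a* (0.997), which encodes the surface protein Sca-1, and *5730480H06Rik* (0.996). Their own changes differed in size, with log2 fold changes of 1.19 for *H2-D1* and 1.70 for *Ly6a* but 0.27 for *Tmem248*. After the group means were removed, the loci most like it over the 6 libraries were *Tmem248*, *Arhgap24*, the joint locus of *Tapbp* and *Zbtb22*, *Ube2l6* and *H2-D1* (r between 0.998 and 0.999). *Tapbp* encodes tapasin, which loads peptides on MHC class I, and *Ube2l6* the conjugating enzyme of ISG15. *Arhgap24* and the *Tapbp* locus were not called. Both sets of loci were picked as the highest r among all non-member loci with a mean log2 CPM of 1 or more. With 6 libraries such a pick yields r near 1 for some loci, and no shared control is read from it.

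Of the interferon genes listed, *Ifnb1* alone could be tested. It had 3, 1 and 0 counts in Scr and 37, 60 and 11 counts in Yme1l siRNA libraries and was higher (adjusted p = 0.00233 from edgeR). *Ifng*, the gene of the main known inducer of GBPs, had 2 counts in Scr replicate 3 and 0 elsewhere, and *Tnf* had at most 2. *Ifna2* and *Ifna4* had 0 counts in Scr and at most 6 in a Yme1l siRNA library. Of 14 tested loci for interferon receptors, their kinases and the factors and regulators of the pathway, 6 were higher, 4 lower and 4 not called, with a median log2 fold change of 0.13. Of all loci, 28.4% were higher and 29.6% lower, and the list is not set apart by these counts.

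Among the higher loci were those of *Usp18*, *Stat2*, *Irf9*, *Irf1* and *Ifnar2*. *Usp18*, which restrains signalling at the type I receptor, changed by 2.99 ± 0.40 on the log2 scale (SE, edgeR adjusted p = 0.000334). *Stat2* and *Irf9*, which act together at the ISRE, changed by 1.64 and 1.19, the latter with an SE of 0.18 (edgeR adjusted p = 0.000677). *Irf1*, itself an ISG, changed by 0.54. *Irf9* shares its locus with *Rnf31* and *Ifnar2* with *Il10rb*. *Ifngr1*, the ligand-binding chain of the interferon-γ receptor, fell by 1.02 on the log2 scale, with 2526, 2168 and 2442 counts in Scr and 1293, 1266 and 1213 counts in Yme1l siRNA libraries. *Jak2*, *Jak1* and *Tyk2* were lower by less, at -0.37, -0.20 and -0.27. The calls of *Jak1* and *Tyk2* were each lost in 5 of 6 fits that left out a library, where the edgeR adjusted p reached 0.0997 (without Yme1l siRNA replicate 2) and 0.0935 (without Scr replicate 3).

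Immunity-related GTPases (IRGs), which coat pathogen vacuoles together with GBPs, had 8 higher and 1 lower of 9 tested loci, against 28.4% higher and 29.6% lower of all loci, with a median log2 fold change of 2.94. *Irgm1*, which keeps the effector IRGs off the cell's own membranes, rose from 3939, 2938 and 2443 counts to 11296, 12156 and 6226 counts, a log2 fold change of 1.57. The joint locus of its relatives *Irgm2* and *Igtp* rose by 2.03. Among the effectors, *Tgtp1* changed by 4.03 ± 0.58 (SE, edgeR adjusted p = 0.000502), *Gm12250* by 3.94, *Tgtp2* by 3.34, *Iigp1* by 2.94 and *Ifi47* by 2.39. *Tgtp1* and *Tgtp2* are close copies, *Tgtp1* shares its locus with *Gm12185* and *Ifi47* with *Olfr56*, so their counts may be split or mixed. With each library left out in turn, *Gm12250* ran from 3.35 to 4.41, *Tgtp2* from 2.70 to 3.76 and *Iigp1* from 2.55 to 3.54. *Irgq*, a member that lacks a working GTPase domain, fell by 1.13. No IRG call was lost when a library was left out. Yme1l siRNA replicate 3 was the lowest of its group at each of the 8 higher loci, as it was at 38.5% of all loci. At *Irgq* it was the highest, with 23.1 CPM against 20.2 and 19.9 CPM in replicates 1 and 2.

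Of 6 other tested loci for large GTPases, 4 were higher and 1 lower, against 28.4% and 29.6% of all loci, with a median log2 fold change of 1.15. *Gvin1*, an interferon-inducible giant GTPase, changed by 4.22 ± 0.58 (SE, edgeR adjusted p = 0.000391) and the antiviral *Mx2* by 2.84. *Mx1* changed by 1.62 with overlapping groups, and its call was lost in 4 of 6 fits that left out a library, where the edgeR adjusted p reached 0.0984 (without Yme1l siRNA replicate 2). The atlastins share the GTPase fold of GBPs but shape the endoplasmic reticulum. *Atl2* was higher by 0.68, *Atl1* fell by 1.24 and *Atl3* was at -0.20 and not called.

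Of 14 loci in a list on ATG8 conjugation, which directs GBPs and IRGs to vacuoles, 4 were higher, 5 lower and 5 not called (median -0.06). The list also holds related genes outside that conjugation. Of the 4 higher loci, *Ubd*, *Trim21* and *Traf6* are such genes and *Atg5* is not. The 5 lower loci are all conjugation genes or ATG8 proteins. The shares of the whole list are near those of all loci, 28.4% higher and 29.6% lower, and no result about it is read from them. *Atg5* was higher by 0.51, while *Atg7* and *Gabarap* fell by 0.97 and 1.00. *Trim21*, an ISG in this list, changed by 1.35, and the calls of *Atg16l1*, *Map1lc3a* and *Ubd* were lost in at least 4 of 6 fits that left out a library. Of 5 tested loci for caspase-11 and inflammasome genes, 2 were higher, 1 lower and 2 not called (median -0.19), again against 28.4% and 29.6% of all loci. *Il18* fell by 1.69, from 957, 1009 and 1016 counts to 330, 341 and 321 counts. *Gsdmd*, the pore protein that caspase-11 cleaves, rose by 1.51 from 16, 13 and 14 counts to 33, 61 and 38 counts, and *Ninj1*, which ruptures the membrane of dying cells, by 0.54. *Casp4*, which encodes caspase-11, was at -0.19 ± 0.24 (SE, edgeR adjusted p = 0.536). *Pycard*, *Nlrc4* and *Il1b* had 0 counts in every library.

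Products of *Gbp2* and *Gbp5* end in a CaaX box, which is prenylated and then trimmed and methylated. Of 7 loci for the enzymes and a carrier that serve such proteins, 3 were higher, 1 lower and 3 not called (median 0.10). Of all loci, 28.4% were higher and 29.6% lower, and 7 loci are too few to set the list apart from these shares. *Zmpste24*, a protease, was higher by 0.93 and *Pde6d*, a carrier of prenylated proteins, fell by 0.44. *Pggt1b*, another of the listed enzymes, was at -0.07 ± 0.10 (SE, edgeR adjusted p = 0.586) and not called. *Fntb*, a subunit of the farnesyltransferase in a joint locus with *Churc1*, and *Rce1*, the protease that trims the box, were higher by 0.20 and 0.23, and each of these calls was lost in 4 of 6 fits that left out a library.

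**Figure D5:**
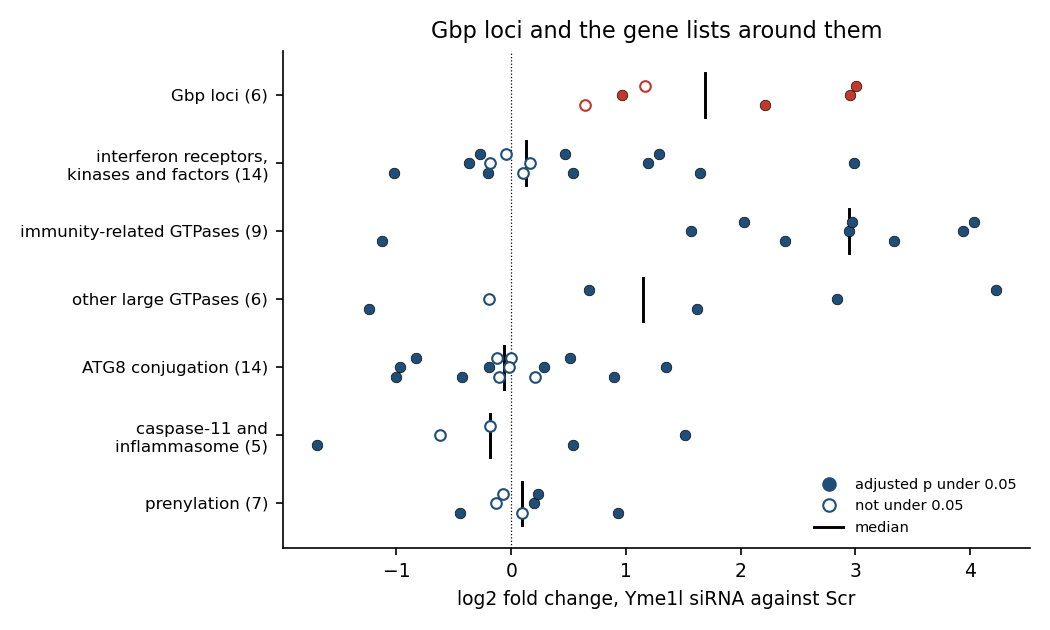
Log2 fold change, Yme1l siRNA against Scr, of the 6 tested *Gbp* loci (red) and of tested loci in 6 gene lists of related function (blue), with the number of loci in brackets. Filled circles mark an adjusted p under 0.05 and vertical bars the median, which is 1.69 for *Gbp*, 2.94 for IRGs and between -0.19 and 0.13 for the receptor, ATG8, caspase-11 and prenylation lists.

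Protein-coding neighbours within 500000 bases of the clusters were too few to be set apart from all loci, of which 28.4% were higher and 29.6% lower. Beside the chromosome 3 cluster, 2 of 5 tested genes were higher and 1 lower. *Bmpr1b*, a receptor of bone morphogenetic proteins, was higher by 1.21 and *Pdlim5* fell by 1.41. Beside the chromosome 5 cluster, 2 of 4 tested genes were higher and 1 lower, with *BC005561* at 0.94 and *Lrrc8d*, a subunit of volume-regulated anion channels, at 0.49. *Kyat3*, the other higher gene of chromosome 3, lost its call in 2 of 6 fits that left out a library.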

How the data were processed

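RNA-Seq libraries of 3 Scr and 3 Yme1l siRNA cultures of WT MEFs were analysed. The authors mapped the reads to GRCm38 with HISAT2 2.0.4, assembled transcripts with StringTie 1.3.3 and compared groups with Cuffdiff 2.2.1 of Cufflinks, per the methods and processing notes. The table used here holds raw counts per locus as the authors deposited them, without normalization. The counting program, its use of strand and its treatment of reads with several matches are not given in the sources used here. Of the 51499 loci, 635 carry more than 1 gene name. Columns of the table without a sample numbered 0. A second deposited table holds the authors' group FPKM levels, fold changes, test statistics and p-values, and was not used.

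These counts were scaled by TMM, filtered by filterByExpr (minimum 10 counts, 15 in total) and tested by the quasi-likelihood method of edgeR 4.0.16 (R 4.3.3) without covariates, with Benjamini-Hochberg adjustment over 14499 loci and a threshold of 0.05. The standard error is the size of the log2 fold change divided by the square root of F. The biological coefficient of variation was 0.131. Replicate libraries were not copies of each other (chi-square per degree of freedom 9.99 to 73.8). Limits for a count of 0 use 3 counts per library and cover counting error only. DESeq2 1.42.0, limma-voom (limma 3.58.1), other scalings and filters, a replicate block, a threshold of 0.01, cluster sums and leaving out each library were alternatives. On counts simulated for 14499 genes, with 200 changed by 2-fold, edgeR recovered 159 with 14 false calls. The simulation changed far fewer genes than were called here and drew noise for each gene independently. It therefore does not give the error rate in these data.

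Members and gene lists were chosen with earlier results of these data known. The values of 1 listed gene are not reported here. The rule named every tested member locus, *Yme1l1*, *Ifnb1*, from each list the 3 loci with the lowest adjusted p and others that a count needs, the 5 loci most like the members by Pearson correlation among loci whose mean log2 CPM was 1 or more, over levels and over deviations from group means, and the 2 neighbours with the largest change at each cluster. Positions, exon lengths and transcripts came from GENCODE M21 and promoters from RefSeq. Transcripts were aligned with BLAST 2.17.0. Of the genes named, *Usp18*, *Irf1*, *Jak1*, *Tyk2*, *Tgtp1*, *Tgtp2*, *Ifi47*, *Atl1*, *Il18*, *Fntb*, *Pde6d*, *Csf1r*, *Fn1*, *Krt8*, *Tmem248*, *5730480H06Rik*, *Arhgap24*, *Tapbp*, *Zbtb22*, *Kyat3* and *Lrrc8d* overlap a gene on the other strand, from which reads cannot be told apart if strand was not used. Tables and figures were made with pandas 2.3.3, numpy 2.4.6, scipy 1.17.1 and matplotlib 3.10.9 in Python 3.11.15.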

Additional observations from a re-analysis of the deposited data

How the results depend on the processing

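The number of *Gbp* loci called higher was 4 by edgeR and by limma-voom and 5 by DESeq2, and none was called lower under any alternative. It ran from 3 (without Scr replicate 3) to 6 (without Yme1l siRNA replicate 3), and was 6 with no filter on low counts. *Gbp3* and both joint loci of chromosome 5 kept their call under all alternatives tried. *Gbp7* lost its call without Scr replicate 3 (adjusted p = 0.0552 from edgeR) and at a threshold of 0.01. *Gbp5* gained a call with DESeq2 (1.17, adjusted p = 0.0187), with no filter (1.15, adjusted p = 0.0245 from edgeR) and without Yme1l siRNA replicate 3, and *Gbp2* with library totals only (0.71, adjusted p = 0.0468 from edgeR), with no filter (0.63, adjusted p = 0.0167 from edgeR) and without Yme1l siRNA replicate 3. The cause was not tested. The median log2 fold change of the tested *Gbp* loci ran from 1.297 (without Yme1l siRNA replicate 2) to 2.05 (without Yme1l siRNA replicate 3). No direction reversed.

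The replicate numbers were tried as a block. Deviations from the group means correlated between same-numbered libraries by 0.04, 0.12 and 0.19. Scr replicates 2 and 3 correlated best with the Yme1l siRNA library of their own number, and Scr replicate 1 did not. The labels do not state pairs, and the numbers were not taken as pairs. With the replicate block, 4227 loci were higher, 4460 lower and 5 *Gbp* loci higher, with *Gbp2* at 0.58 (adjusted p = 0.00829 from edgeR). *Gbp3* was at 2.98 ± 0.11 (SE) with the block and at 2.95 ± 0.46 (SE) without it, while *Gbp5* was still not called (adjusted p = 0.0751 from edgeR). The median spread of the *Gbp* loci within the Yme1l siRNA group fell from 2.61-fold to 1.20-fold without its replicate 3, a setting chosen after seeing the data. That library was the lowest of its group at each of these loci, so a fall was bound to occur. With 3 cultures per group, the locus with the fewest counts, *Gbp5*, had 29 to 173 counts in a library.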
